A study of Mus musculus with 12 samples.

Results

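The genes described here are 9 transcription factor genes: Fos, Fosl2, Jun, Junb, Jund, Atf3 and Batf of the AP-1 family, Egr1 and Myc. They were chosen by name, from knowledge of the early response of cells to a stimulus, but with earlier results of these data known. They were found in the count table through their Ensembl identifiers. The table held 54232 genes, of which 16281 had enough counts to be tested, and all 9 genes were among those tested. The cells were bone marrow derived macrophages (BMDMs) of wild-type C57BL/6 mice 6 to 8 weeks old, grown for 5 days, which by the methods were kept in M-CSF. They were left without tumor-conditioned medium (TCM) or given TCM of a mouse neuroblastoma line, with an exposure recorded as 24 h. NB9464 TCM came from a line with amplified MYCN and NBT3L TCM from a line without it. R788 (fostamatinib), a prodrug inhibitor of the tyrosine kinase Syk, was present at 500 nM or absent. By the methods, R788 was given for 24 h after NB9464 TCM, so the cells may have had TCM for longer. This gave 6 groups of 2 libraries: NS (no TCM and no R788), R788, NB9464 TCM, NB9464 TCM + R788, NBT3L TCM and NBT3L TCM + R788. The study asked how soluble factors of neuroblastoma cells change macrophages and what Syk inhibition does to that change. Each tumor type is represented by a single line, NB9464 TCM was collected in DMEM without serum, and neither the medium of NS and R788 cells nor the R788 vehicle was given. Effects of TCM and of base medium or serum therefore cannot be told apart. Nothing in the labels says that the 2 libraries of a group came from separate mice or cultures, so p-values measure only the spread between these libraries, which may be technical.

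AP-1 factors are dimers of basic leucine zipper proteins of the FOS, JUN, ATF and BATF families, and they bind DNA at short palindromic sites. Fos, Egr1 and, more slowly, Myc are immediate early genes: a growth factor, an Fc receptor or a pattern receptor switches them on through MAP kinases, with no need for newly made protein, and their RNA decays quickly. In macrophages AP-1 factors sit with the lineage factor PU.1 at many enhancers, and Syk acts near the top of the pathways by which Fc receptors and C-type lectin receptors reach the MAP kinases. The libraries were taken after 24 h, so the values are levels late in the response and not the first wave after a stimulus.

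Total counts per library were between 44977847 and 56449685. A library of the R788 group (SJ8) stood apart, with 16149 detected genes against 17275 to 18343 in the other 11. The replicates of the R788 group also differed most, with an SD of the log2 difference of 0.293 over genes against 0.183 to 0.219 in the other 5 pairs. The 8 macrophage markers were all detected, with summed normalized counts between 1610304 and 2691436. Of 9 neuroblastoma markers, Th and Chga were at 0 counts in every library, and the list summed to at most 10.3 in NS, 41.5 in R788 and 114 in the groups with TCM. By DESeq2, Hand2 (adjusted p = 0.0064) and Gata3 (0.015) were higher in NB9464 TCM than in NS. Dbh (adjusted p = 0.0187), Hand2 (0.0167) and Gata3 (0.0336) were higher in NBT3L TCM. The rest of the 5 tested markers did not pass. The highest mean among these was 63.2 normalized counts (Gata3 in NB9464 TCM). The summed level of 6 neutrophil genes was between 3875 and 4329.6 in NS and between 8202 and 10339 in TCM. It was between 2551 and 3819 in R788 and between 6796 and 7638 in TCM + R788. Among these genes S100a8 rose from 1265.0 to 6043 and 7978 with NB9464 and NBT3L TCM, while Mpo and Elane fell. Which cells made these transcripts was not tested. The 5 fibroblast markers summed to between 1191 and 2009.9 without R788 and between 1945 and 3372 with it. Markers of dendritic cells (4 genes), T cells (3), B cells (3) and mast cells or basophils (3) summed to at most 429, 78.2, 28.2 and 13.0. The part of these lists in the results below was not tested, and in bulk samples fewer cells of a type and less RNA per cell cannot be told apart.

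Without TCM, R788 lowered most of these genes, whereas Batf rose with R788 in every medium. Of the 9 genes, 6 fell with R788 in the absence of TCM (Fos, Jun, Junb, Atf3, Egr1 and Myc) and Batf rose, beside 26.6% of all tested genes called in that comparison, 15.0% lower and 11.6% higher. Fos fell 2.35-fold, Atf3 and Myc 2.17-fold and Egr1 8.14-fold. In NB9464 TCM, 4 genes fell with R788 (Fosl2, Atf3, Egr1 and Myc) and Batf rose, beside 14.5% of all genes, 8.7% lower and 5.79% higher. The same 5 genes were called in NBT3L TCM, in the same directions, beside 12.6% of all genes, 7.24% lower and 5.33% higher. A gene was called when the DESeq2 p-value, adjusted over all tested genes by the Benjamini-Hochberg method, was under 0.05. By mean normalized count Egr1 was at percentile 36.9 of all tested genes, and the others lay between 70.1 (Myc) and 96.1 (Junb). Genes with many counts are called more easily, so the share over all tested genes is a low scale for them. Without library SJ8 the count in the absence of TCM was 6 in place of 7, because Jun was no longer called.

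For 5 of the genes R788 acted differently with and without TCM. The difference (effect in NB9464 TCM minus effect without TCM) was called for Fos, Fosl2, Junb, Atf3 and Myc, beside 12.5% of all genes, 6.22% with a difference above 0 and 6.26% below. Fosl2 was the gene below 0. In NBT3L TCM it was called for Fos, Junb, Atf3 and Myc, beside 10.1% of all genes, 5.17% above 0 and 4.96% below. Between the 2 tumor media, the R788 effect differed detectably for 0 of the 9 genes, beside 0.706% of all genes, 0.424% below 0 and 0.283% above. At an unadjusted p under 0.05 that last count was 1 (Fos), and edgeR also called 0.

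**Figure D1:**
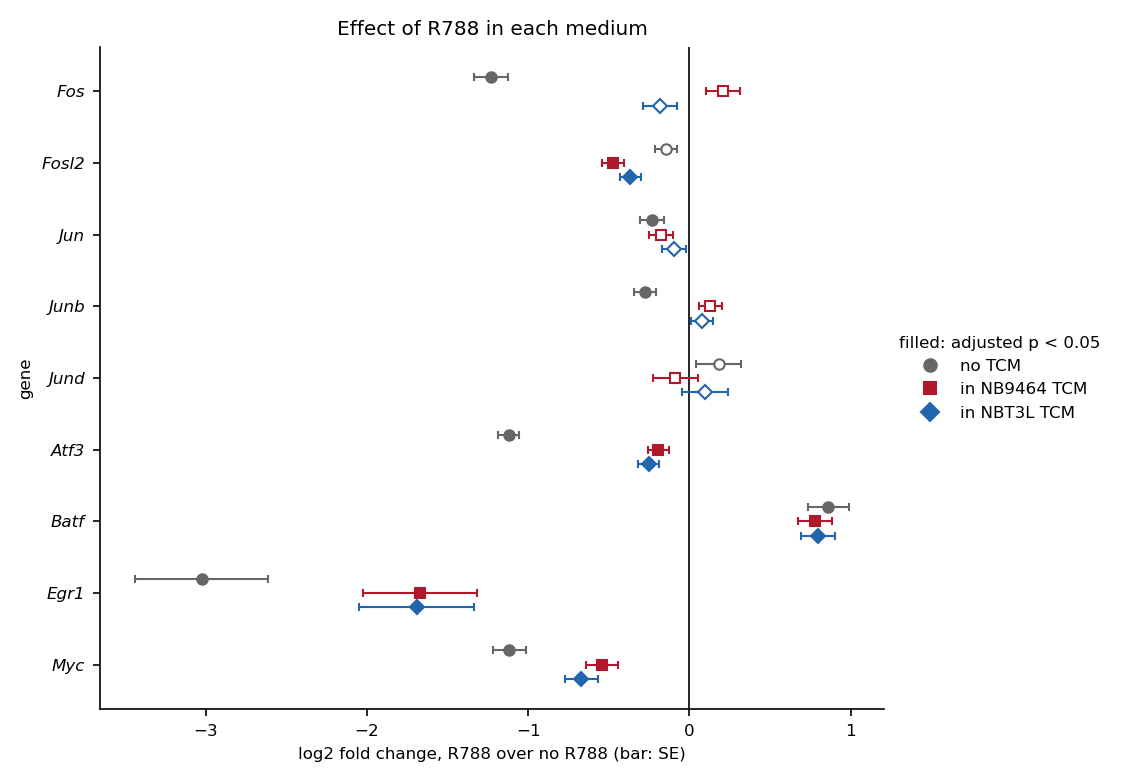
Log2 fold change of each gene with R788 (x axis, bars are standard errors) without TCM (circles), in NB9464 TCM (squares) and in NBT3L TCM (diamonds), with filled symbols for an adjusted p under 0.05. Fos, Atf3, Egr1 and Myc lie furthest left without TCM, and Batf is to the right of 0 in all 3 media.

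TCM moved the genes in both directions. Against NS, 8 of 9 genes were called in NB9464 TCM, beside 34.1% of all genes, 17.2% higher and 16.9% lower: Fosl2, Junb, Batf, Egr1 and Myc higher, and Fos, Jun and Atf3 lower. In NBT3L TCM 7 were called, beside 35.3% of all genes, 18.0% higher and 17.3% lower: Fosl2, Junb, Atf3, Batf and Egr1 higher, and Fos and Jun lower. Both comparisons share the NS libraries. The largest change was that of Batf, which rose 9.35-fold and 9.75-fold. The count for NB9464 TCM rests on single libraries, since it fell to 3 without library SJ1 (NS) or SJ4 (NB9464 TCM) and to 5 without SJ2 (NS) or SJ3 (NB9464 TCM). The count for NBT3L TCM was 5 or more whichever library was left out.

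With R788 present, the genes called with TCM all rose. Compared with R788 alone, 7 of 9 genes were higher in NB9464 TCM + R788 (40.4% of all genes called, 20.7% higher and 19.6% lower) and in NBT3L TCM + R788 (41.4%, 21.5% higher and 19.9% lower). These were Fos, Fosl2, Junb, Atf3, Batf, Egr1 and Myc in both media. DESeq2 called 0 of the 9 lower in either, and edgeR also called 0. At an unadjusted p under 0.05, 8 genes passed in NB9464 TCM + R788, with Jun as the only one lower, and 7 in NBT3L TCM + R788. Both comparisons were added after the values had been seen, and share the R788 libraries.

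**Figure D2:**
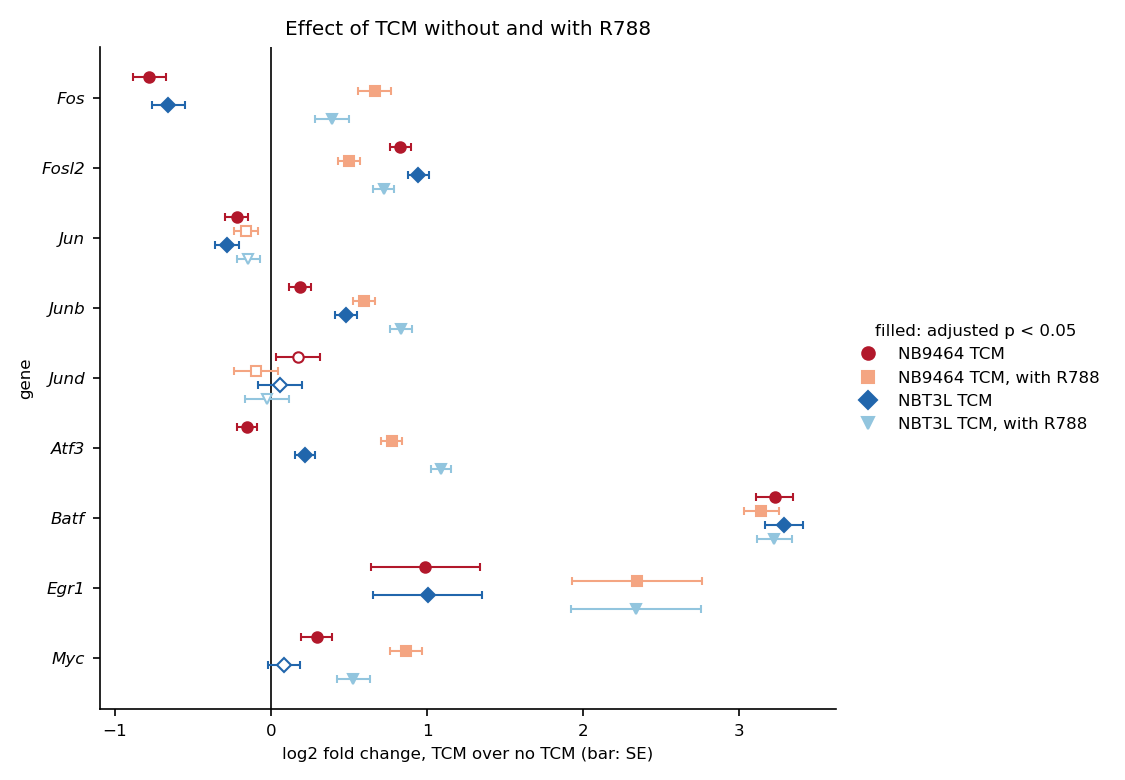
Log2 fold change of each gene with TCM over no TCM (x axis, bars are standard errors), without R788 (circles, NB9464; diamonds, NBT3L) and with R788 (squares, NB9464; triangles, NBT3L), with filled symbols for an adjusted p under 0.05. Fos is left of 0 without R788 and right of 0 with it, whereas the 4 values of Batf lie close together above 3.

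Between the 2 tumor media fewer of the 9 genes were called. Without R788, Junb and Atf3 were called between NB9464 TCM and NBT3L TCM, both lower in NB9464 TCM, beside 9.4% of all genes, 5.72% lower and 3.69% higher. With R788, 4 genes were called, beside 9.62% of all genes, 6.09% lower and 3.53% higher: Fosl2, Junb and Atf3 lower and Myc higher in NB9464 TCM + R788. Leaving out single libraries brought these counts to 1 at the lowest: without SJ3 (NB9464 TCM) in the first comparison, and without SJ9 (NB9464 TCM + R788) or SJ11 (NBT3L TCM + R788) in the second. The second count was 2 without SJ10 or SJ12.

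Stretches before the start site are shown for the 4 genes whose promoter window held the letters TGACG, the core of the site that ATF and CREB factors bind. The set includes 3 genes that fell with R788 in the absence of TCM (Fos, Junb and Atf3) and Batf, which rose. Sequences are from RefSeq on GRCm38.p6, in the direction of the gene, and end at the base before the RefSeq start, except for Batf, which ends 51 bases earlier. Capitals mark TGACG or its complement CGTCA. The stretches are chr12:85473740-85473889 on the plus strand (Fos), chr8:84978749-84978898 on the minus strand (Junb), chr1:191183334-191183363 on the minus strand (Atf3) and chr12:85686570-85686668 on the plus strand (Batf).
Fos: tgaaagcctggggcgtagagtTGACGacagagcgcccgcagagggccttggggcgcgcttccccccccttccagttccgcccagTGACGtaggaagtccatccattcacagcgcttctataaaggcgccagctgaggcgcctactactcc
Junb: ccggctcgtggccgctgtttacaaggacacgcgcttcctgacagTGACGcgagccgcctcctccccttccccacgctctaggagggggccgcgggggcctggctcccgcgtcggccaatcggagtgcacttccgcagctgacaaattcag
Atf3: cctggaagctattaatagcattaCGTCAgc
Batf: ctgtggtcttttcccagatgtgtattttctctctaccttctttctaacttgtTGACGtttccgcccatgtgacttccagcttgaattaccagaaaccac
Counted from the RefSeq start site, the leftmost base of the match was at -129 and -66 in Fos, -106 in Junb, -7 in Atf3 and -98 in Batf. For Atf3, Batf and Fosl2 this start lies inside the gene span given below, and for Junb and Jund before it. A window of 300 bases, 250 before the start and 50 after it, was searched on both strands for 7 of the 9 genes. No window was at hand for Egr1 and Myc. TGACG was present in 4 of the 7 windows and in 20.8% of 32851 windows of all genes. The exact letters of the longer cyclic AMP response element that contains it were in 0 of 7 (1.79% of all windows). The AP-1 site TGANTCA (7.81%), the E-box CACGTG (7.15%) and the CArG box of serum response factor (1.63%) were also in 0 of 7. Other spellings of these sites and sites outside the window were not searched for, so 0 does not mean that a gene lacks the site. The EGR site GCGNGGGCG was in 1 of 7, Fosl2, at -79, and in 5.55% of all windows. These are matches of letters and say nothing of binding.

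Read counts divided by the library's size factor (normalized counts) spanned a wide range of levels. Per kb of exon and averaged over the 12 libraries, Junb (5699) and Atf3 (4685) were the highest, followed by Jun (2107), Batf (1722), Jund (1215), Fos (992), Myc (731), Fosl2 (446) and Egr1 (33.2). Between the lowest and the highest group mean, Batf ranged 17.0-fold and Egr1 16.1-fold. Myc, Atf3, Fos and Fosl2 ranged between 2.13-fold and 2.66-fold, Junb 1.78-fold, Jun 1.32-fold and Jund 1.13-fold. R788 without TCM was the lowest of the 6 groups for Fos, Fosl2, Junb, Atf3, Egr1 and Myc. Between 49.3% and 66.8% of all tested genes had groups that did not overlap in these comparisons, so a gap between pairs of libraries is common.

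**Figure D3:**
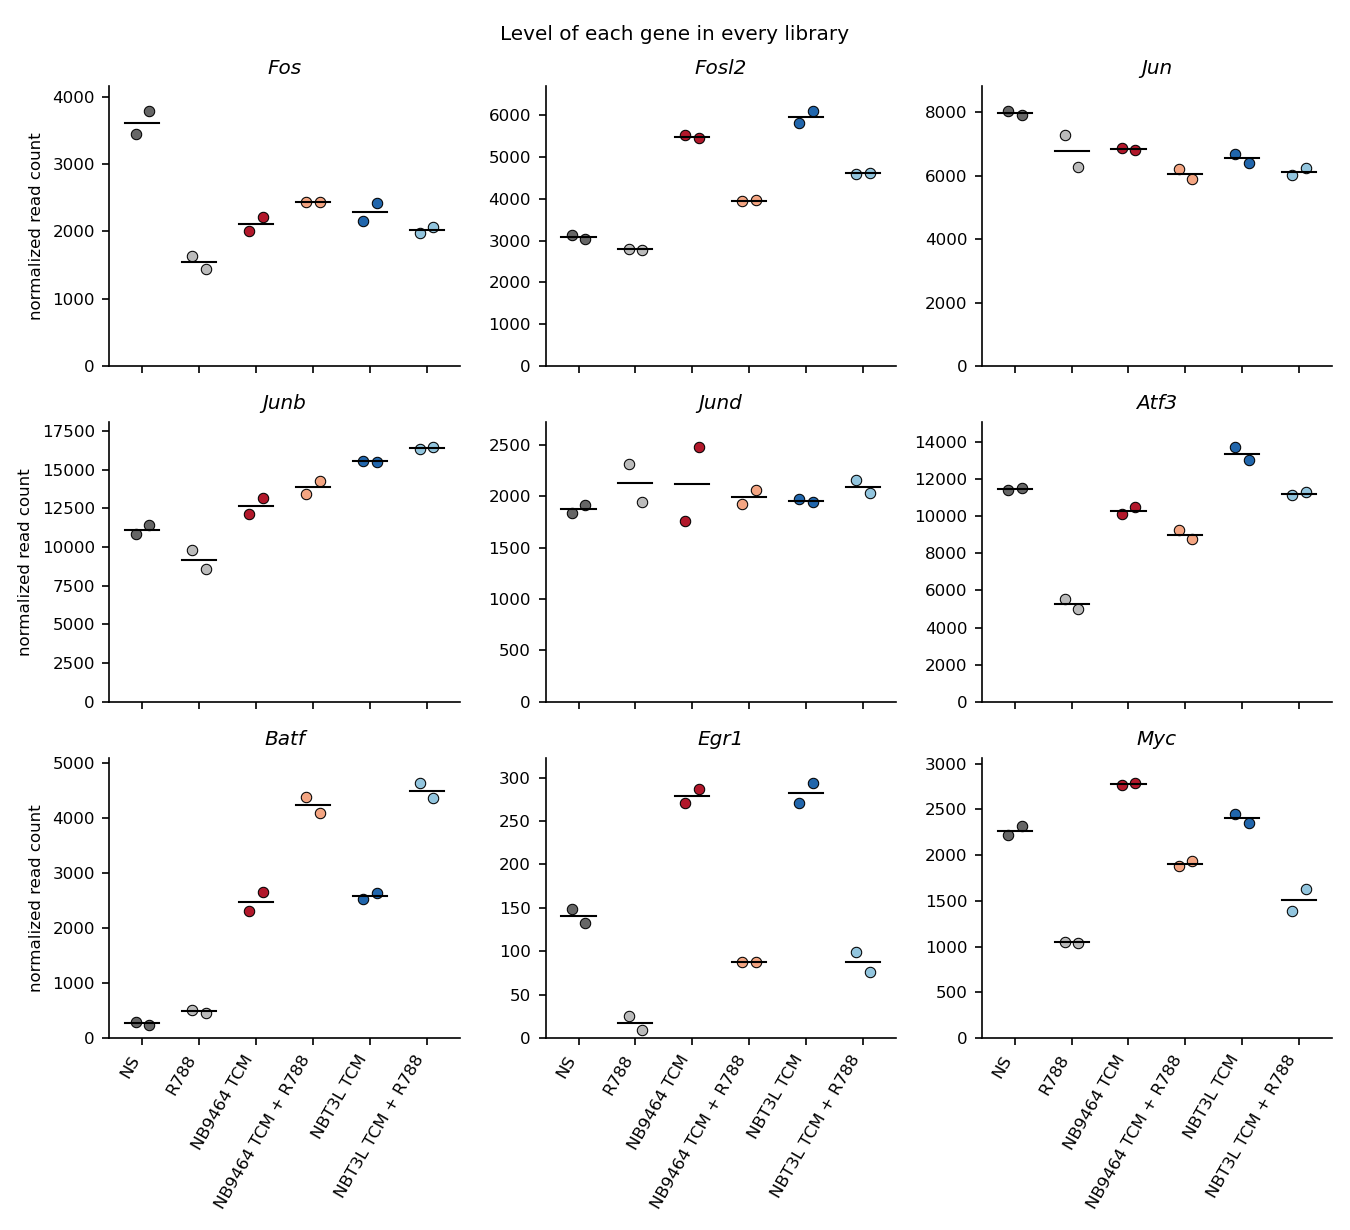
Normalized read count of each gene (y axis, from 0) in every library, with a dot per library and a line at the mean of each of the 6 groups. The R788 group is lowest in 6 of the 9 panels, and in the Jund panel the NB9464 TCM pair, 1761 and 2473, spans the range of the other groups.

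Fos (ENSMUSG00000021250, chromosome 12, 85473890 to 85477273, GRCm38) encodes c-FOS, which binds DNA only as a partner of a JUN protein. Its normalized counts were 3438 and 3779 in NS, 1635 and 1440.3 in R788, 1998 and 2214 in NB9464 TCM, 2438 and 2434 in NB9464 TCM + R788, 2157 and 2421 in NBT3L TCM, and 1969 and 2059.9 in NBT3L TCM + R788. The NS libraries stood above all others and the R788 libraries below all others. Against NS, the log2 fold change was -1.23 ± 0.105 (SE, DESeq2 adjusted p = 1.08e-29) in R788, -0.78 (adjusted p = 1.35e-12) for NB9464 and -0.66 (adjusted p = 3.49e-09) for NBT3L TCM. TCM or R788 alone thus lowered Fos, whereas the values of both together lay above R788 alone. With R788 present, Fos was 0.66 (adjusted p = 3.02e-09) higher on the log2 scale in NB9464 TCM and 0.39 (adjusted p = 0.000898) higher in NBT3L TCM. Within TCM no effect of R788 was called: 0.21 (95% interval 0.00 to 0.42, adjusted p = 0.171) in NB9464 TCM and -0.18 (-0.39 to 0.02, adjusted p = 0.272) in NBT3L TCM.

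The test of the difference was clear for Fos. The R788 effect in NB9464 TCM exceeded that without TCM by 1.44 ± 0.149 (SE, DESeq2 adjusted p = 1.05e-19), and that in NBT3L TCM by 1.05 (adjusted p = 2.17e-10). Since this is also the difference of the TCM effects, the effect of TCM on Fos changed sign with R788. Without library SJ8 these differences were 1.35 and 0.96.

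Fosl2 (ENSMUSG00000029135, chromosome 5, 32135801 to 32157842) encodes FRA2, a FOS relative whose RNA lasts longer after a stimulus than that of Fos. The 12 libraries held normalized counts of 3135 and 3045 in NS, 2811 and 2777 in R788, 5522 and 5447 in NB9464 TCM, 3939.9 and 3961 in NB9464 TCM + R788, 5806 and 6092 in NBT3L TCM, and 4603 and 4626 in NBT3L TCM + R788. None of the 6 groups overlapped another. It rose with TCM by 0.83 ± 0.067 (SE, DESeq2 adjusted p = 1.58e-33) and 0.95 ± 0.067 (adjusted p = 2.65e-43) on the log2 scale for NB9464 and NBT3L. R788 lowered it in TCM, with changes of -0.47 (adjusted p = 6.72e-11) and -0.37 (adjusted p = 1.11e-06), and not detectably without TCM (-0.15, 95% interval -0.28 to -0.01, adjusted p = 0.0965). Its R788 effect in NB9464 TCM lay below that without TCM (-0.33, DESeq2 adjusted p = 0.00656), a call lost without SJ2, SJ3 or SJ9 and in a fit of only the libraries compared. For NBT3L TCM the difference was -0.22 (-0.41 to -0.03, adjusted p = 0.115). With R788, Fosl2 was lower in NB9464 TCM than in NBT3L TCM (-0.22, DESeq2 adjusted p = 0.0119), a call lost by edgeR (0.0515) and without any of the 4 libraries compared.

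Per kb of exon, Fos made up 81.9% to 83.6% of the sum of Fos and Fosl2 in NS, 68.1% to 70.5% in R788, 59.8% to 62.6% in the groups with TCM alone and 63.8% to 71.8% in TCM + R788. Their sum was 1786 to 1921 per kb in NS and 899 to 986 in R788. In the other 4 groups it was between 1313 and 1659.

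**Figure D4:**
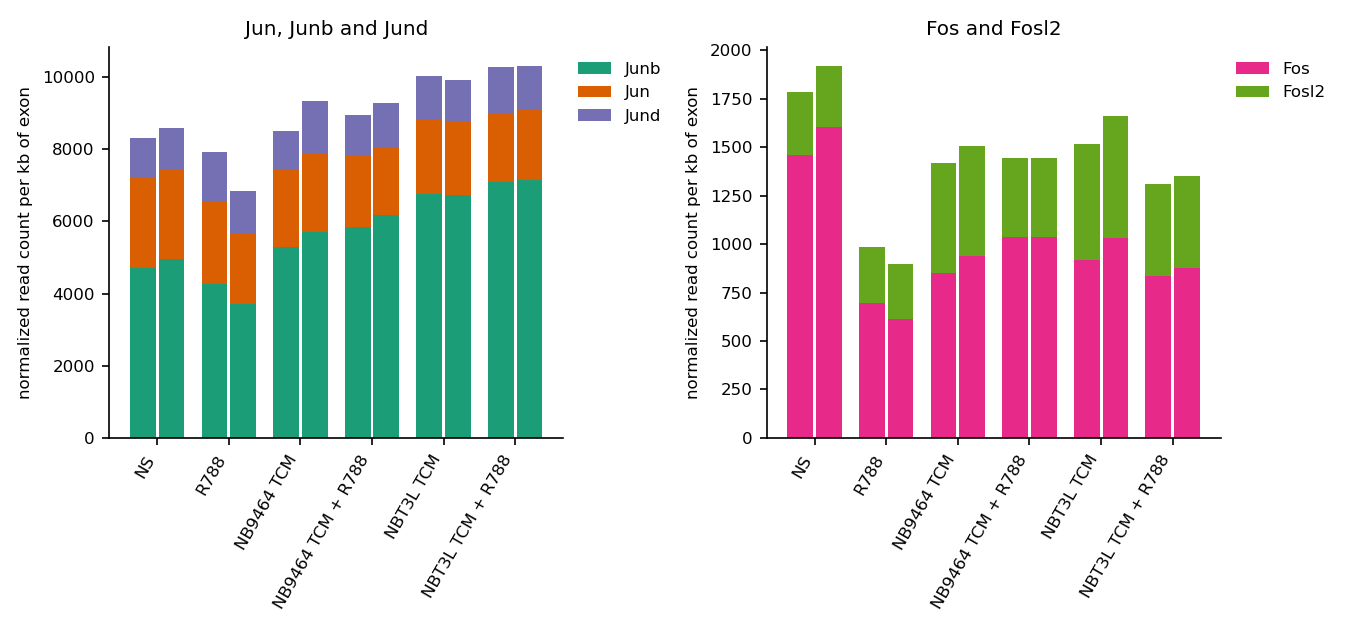
Normalized read count per kb of exon (y axis, from 0) of Junb, Jun and Jund (left) and of Fos and Fosl2 (right), stacked, with a bar for each library and 2 bars per group. Junb is the largest part of the left bars in every library, and the right bars are lowest in R788.

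The JUN proteins pair with FOS, ATF or BATF proteins or with each other. Jun (ENSMUSG00000052684, chromosome 4, 95049034 to 95052222) had normalized counts of 8025 and 7908 in NS, 7275 and 6272 in R788, 6865 and 6824 in NB9464 TCM, 6224 and 5892 in NB9464 TCM + R788, 6698 and 6403 in NBT3L TCM, and 6009 and 6252 in NBT3L TCM + R788. The NS libraries were the highest, and the other groups lay close together. The log2 fold changes against NS were small: -0.22 (DESeq2 adjusted p = 0.013) in NB9464 TCM, -0.28 (adjusted p = 0.00082) in NBT3L TCM and -0.23 (adjusted p = 0.00871) in R788. The first call was lost without any of the 4 libraries compared (adjusted p between 0.0532 and 0.0893), and the last without SJ1 (0.0714) or SJ8 (0.144). R788 within TCM gave -0.18 (95% interval -0.32 to -0.03, adjusted p = 0.0917) and -0.10 (-0.24 to 0.05, adjusted p = 0.484).

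Junb (ENSMUSG00000052837, chromosome 8, 84974484 to 84978718) encodes a JUN protein that is a weaker activator than c-JUN on many simple AP-1 sites. In normalized counts it had 10829 and 11389.8 in NS, 9798 and 8553 in R788, 12159.6 and 13158 in NB9464 TCM, 13453 and 14243 in NB9464 TCM + R788, 15532 and 15512 in NBT3L TCM, and 16311 and 16429 in NBT3L TCM + R788. The groups did not overlap, and their order was R788, NS, NB9464 TCM, NB9464 TCM + R788, NBT3L TCM and NBT3L TCM + R788. R788 lowered it without TCM (-0.28, DESeq2 adjusted p = 0.000532), whereas in TCM the change was 0.13 (95% interval -0.01 to 0.27, adjusted p = 0.21) and 0.08 (-0.06 to 0.21, adjusted p = 0.559). These effects differed from that without TCM by 0.41 (adjusted p = 0.000678) and 0.35 (adjusted p = 0.00488). NBT3L TCM raised it by 0.48 (adjusted p = 4.27e-11). NB9464 TCM raised it by 0.19 (adjusted p = 0.0226; 0.063 by edgeR), and this call was lost without SJ1 or SJ4. The media also differed from each other, by -0.29 (adjusted p = 0.000456, lost without SJ3) for NB9464 TCM against NBT3L TCM and by -0.24 (adjusted p = 0.00786, lost without SJ9, SJ11 or SJ12) in the presence of R788.

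Jund (ENSMUSG00000071076, chromosome 8, 70698949 to 70700616) encodes the JUN protein that most resting cells hold. Per library, Jund had normalized counts of 1837 and 1915 in NS, 2313 and 1939 in R788, 1761 and 2473 in NB9464 TCM, 1927 and 2058 in NB9464 TCM + R788, 1968 and 1942 in NBT3L TCM, and 2155 and 2028 in NBT3L TCM + R788. It was called in 0 of the 12 contrasts by DESeq2, at an unadjusted p under 0.05 also in 0, and by edgeR in 0. Against NS the log2 fold change was 0.18 (95% interval -0.09 to 0.45) in R788, 0.17 (-0.10 to 0.45) in NB9464 TCM and 0.06 (-0.22 to 0.34) in NBT3L TCM. The NB9464 TCM pair was far apart, and without SJ3 its difference from NS was 0.40 and was called (adjusted p = 0.0143).

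Junb made up the largest share of Jun, Junb and Jund per kb, 56.5% to 57.7% in NS, 53.7% to 54.3% in R788 and 69.1% to 69.2% in NBT3L TCM + R788. The share of Jun went from 28.9% to 30.2% in NS down to 18.4% to 19.0% in NBT3L TCM + R788. Exons of the antisense gene Junos cover 7.3% of the exon bases of Jun, those of Prdx2 on the other strand 7.5% of Junb, and those of the antisense gene Gm11175 52.6% of Jund. Whether counting used the strand was not stated, so reads of these stretches cannot be assigned with certainty. Gm11175 had 0 counts in all libraries, Junos 377 to 807 and Prdx2 9531 to 13148. Whether reads shared by overlapping genes were dropped is not known. By share of exon bases, the per kb level and the share of Jund carry this limit most. By counts of the overlapping gene, Junb carries it most.

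Atf3 (ENSMUSG00000026628, chromosome 1, 191170296 to 191218039) encodes a stress-induced ATF protein that dampens inflammatory genes in macrophages. Normalized counts of Atf3 were 11397 and 11508 in NS, 5550.5 and 4989 in R788, 10102 and 10470.2 in NB9464 TCM, 9235 and 8769 in NB9464 TCM + R788, 13695 and 12994 in NBT3L TCM, and 11128 and 11271 in NBT3L TCM + R788. The R788 libraries lay far below the other 10, which were between 8769 and 13695. The log2 fold change with R788 was -1.12 ± 0.065 (SE, DESeq2 adjusted p = 1.23e-64) without TCM. In TCM it was -0.19 (adjusted p = 0.0195) and -0.25 (adjusted p = 0.00117). The first of these was lost by edgeR (0.0694) and without any of the 4 libraries compared, and the second without SJ5. The R788 effects in NB9464 TCM and NBT3L TCM differed from that without TCM by 0.93 (adjusted p = 9.26e-22) and 0.87 (adjusted p = 3.94e-19).

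Atf3 was also the gene of the 9 with the largest difference between the tumor media without R788. NB9464 TCM over NBT3L TCM gave -0.38 (DESeq2 adjusted p = 2.14e-07), and -0.32 (adjusted p = 3.54e-05) in the presence of R788. Against NS it was higher in NBT3L TCM (0.22, DESeq2 adjusted p = 0.00234, lost without SJ5). It was lower in NB9464 TCM (-0.15, adjusted p = 0.0461), a call that 4 of the 6 other analyses and most omissions of a library lost.

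Batf (ENSMUSG00000034266, chromosome 12, 85686669 to 85709087) encodes a small leucine zipper protein without an activation domain, which joins JUN proteins and IRF4 or IRF8 on composite sites. Batf had normalized counts of 287 and 242 in NS, 507 and 455 in R788, 2302 and 2645 in NB9464 TCM, 4382 and 4089 in NB9464 TCM + R788, 2526 and 2634 in NBT3L TCM, and 4626 and 4355 in NBT3L TCM + R788. Every library with TCM was above every library without it, and in each medium both libraries with R788 were above both without. TCM raised it by 3.23 ± 0.121 (SE, DESeq2 adjusted p = 2.9e-155) and 3.29 ± 0.121 (adjusted p = 2e-160) on the log2 scale for NB9464 and NBT3L. R788 raised it by 0.86 ± 0.126 (adjusted p = 1.94e-10) without TCM, by 0.78 ± 0.105 (adjusted p = 8.98e-12) for NB9464 and by 0.80 ± 0.106 (adjusted p = 2.22e-12) for NBT3L TCM. The R788 effects did not differ detectably between media: the difference from no TCM was -0.09 (95% interval -0.41 to 0.24, adjusted p = 0.809) for NB9464 and -0.06 (-0.38 to 0.26, adjusted p = 0.878) for NBT3L. Nor did Batf differ detectably between the 2 tumor media, at -0.06 (-0.27 to 0.15, adjusted p = 0.811). Both agents moved Batf up, and its level with both was 17.0 times that of NS in NBT3L TCM + R788.

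Egr1 (ENSMUSG00000038418, chromosome 18, 34859823 to 34864984) encodes a zinc finger factor induced through ERK and serum response factor, with a part in macrophage differentiation. It was by far the lowest of the 9, so its values carry the most counting error. Egr1 had normalized counts of 148 and 133 in NS, 25.4 and 9.58 in R788, 271 and 287 in NB9464 TCM, 87.5 and 87.8 in NB9464 TCM + R788, 271 and 293 in NBT3L TCM, and 98.6 and 76.4 in NBT3L TCM + R788. The raw counts behind the R788 values were 28 and 12. In each medium both libraries with R788 were below both without. Its log2 fold change with R788 was -3.02 ± 0.411 (SE, DESeq2 adjusted p = 4.06e-12) without TCM, -1.67 ± 0.355 (adjusted p = 4.85e-05) in NB9464 and -1.69 ± 0.356 (adjusted p = 4.34e-05) in NBT3L TCM. The difference from no TCM was 1.35 (95% interval 0.29 to 2.42, adjusted p = 0.0703) and 1.33 (0.27 to 2.40, adjusted p = 0.0873). The NB9464 value passed when genes with a mean under 50 counts were left out (0.0453). Both depended on the R788 pair, at 2.20 and 2.18 without SJ7, which passed, and 0.80 and 0.77 without SJ8, which did not.

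NB9464 TCM raised Egr1 1.98-fold (DESeq2 adjusted p = 0.0154) and NBT3L TCM 2.01-fold (adjusted p = 0.013). Each call was lost when any of its own 4 libraries was left out, with adjusted p between 0.0619 and 0.133. In the presence of R788 the rise with TCM was 5.08-fold (DESeq2 adjusted p = 1.3e-07) and 5.06-fold (adjusted p = 1.25e-07). Of the rest of the EGR family, Egr3 fell with R788 from 67.9 ± 20.9 to 10.02 ± 3.89 (SD, n = 2) without TCM and Egr2 from 98.0 ± 20.7 to 30.7 ± 13.6 in NBT3L TCM. Egr3 was also lower with R788 in NB9464 TCM (66.2 ± 18.7 to 19.7 ± 8.22) but higher in NBT3L TCM (25.4 ± 11.5 to 49.5 ± 30.95), and neither passed. Its R788 effect in NBT3L TCM exceeded that without TCM by 3.71 (DESeq2 adjusted p = 0.00484). Egr2 and Egr3 lie outside the rule for named genes because of their low counts and were chosen after their values were seen. The corepressor Nab2, an EGR target that restrains EGR proteins, fell by 0.67 (adjusted p = 5.88e-06) on the log2 scale with R788 without TCM. Of the 4 tested EGR relatives and corepressors, R788 lowered 2 without TCM (median -0.91), beside 26.6% of all tested genes called. It lowered 1 in NB9464 TCM (Nab1, beside 14.5%) and 2 in NBT3L TCM (Egr2 and Nab1, beside 12.6%). The rest did not pass. TCM raised Nab1 for both lines and lowered Egr2 for NB9464, beside 34.1% (NB9464) and 35.3% (NBT3L) of all tested genes called.

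Myc (ENSMUSG00000022346, chromosome 15, 61985391 to 61990374) encodes the MYC protein, which with MAX drives genes of ribosome synthesis and growth and is kept on by M-CSF in macrophages. Normalized counts of Myc were 2217 and 2315 in NS, 1053 and 1038 in R788, 2773 and 2785 in NB9464 TCM, 1885 and 1930.5 in NB9464 TCM + R788, 2452 and 2356 in NBT3L TCM, and 1388 and 1629 in NBT3L TCM + R788. In each medium the libraries with R788 were below those without, and no groups overlapped. Its log2 fold change with R788 was -1.12 ± 0.102 (SE, DESeq2 adjusted p = 8.09e-26) without TCM, -0.54 ± 0.101 (adjusted p = 1.73e-06) in NB9464 and -0.67 ± 0.102 (adjusted p = 2.05e-09) in NBT3L TCM. The falls in TCM were smaller than that without, by 0.57 (adjusted p = 0.00107) and 0.44 (adjusted p = 0.021). The second of these was lost without SJ1, SJ2, SJ5, SJ6 or SJ12 (adjusted p between 0.0547 and 0.243) and in a fit of only the libraries compared (0.0718).

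Without R788, Myc was 0.29 (adjusted p = 0.0116, lost without SJ1, SJ3 or SJ4) higher in NB9464 TCM than in NS. It was not detectably changed in NBT3L TCM (0.08, 95% interval -0.11 to 0.28, DESeq2 adjusted p = 0.587). With R788 it was 0.34 (adjusted p = 0.0131) higher in NB9464 TCM than in NBT3L TCM, a call lost without SJ9, SJ10 or SJ11. The mouse gene Mycn, a relative of Myc, was at 0 counts in NS, R788 and NBT3L TCM + R788. It averaged 15.0 ± 11.7 normalized counts (SD, n = 2) in NB9464 TCM, 11.4 ± 2.18 in NBT3L TCM and 32.0 ± 12.9 in NB9464 TCM + R788. Whether these counts reflect the amplified MYCN of the NB9464 line was not tested.

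Textbook MYC targets of ribosome synthesis and growth, 25 genes and all tested, fell in part with R788. Without TCM, 17 fell and 1 rose, beside 26.6% of all tested genes called. The median log2 fold change was -0.38 against 0.00 over all tested genes. In NB9464 TCM 14 fell and 11 did not pass (median -0.25, beside 14.5% of all genes called). In NBT3L TCM 8 fell and 17 did not pass (median -0.15, beside 12.6%). Odc1, which makes polyamines, fell in all 3 media, with log2 changes of -1.22 (DESeq2 adjusted p = 3.12e-49), -0.72 (adjusted p = 8.93e-17) and -0.89 (adjusted p = 5.96e-26). Nop58, of the box C/D particles that modify ribosomal RNA, changed by -0.92 (adjusted p = 2.36e-17) without TCM and -0.45 (adjusted p = 0.000211) in NBT3L TCM. The gene that rose was Shmt2, of mitochondrial one-carbon metabolism (0.35, adjusted p = 6.69e-06). With TCM against NS, 12 rose and 2 fell for NB9464, beside 34.1% of all genes called. For NBT3L 11 rose and 2 fell, beside 35.3%. The rises were led by Srm, of spermidine synthesis (1.07, adjusted p = 2.88e-26), and Ldha, of lactate production (1.03, adjusted p = 1.49e-86), respectively. Many of these genes also respond to factors other than MYC.

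In the MYC-MAX network of 12 genes, Mxd4, whose protein competes with MYC for MAX, rose with R788 by 1.19 (DESeq2 adjusted p = 1.04e-23) without TCM, 0.93 (adjusted p = 7.86e-14) for NB9464 and 0.89 (adjusted p = 6.39e-12) for NBT3L TCM. It moved opposite to Myc in each medium. With R788, 2 genes of the network rose and 10 did not pass without TCM, beside 26.6% of all tested genes called. In NB9464 TCM 1 rose and 11 did not pass (beside 14.5%), and in NBT3L TCM 2 rose and 1 fell (beside 12.6%). With TCM 4 rose, Mycn with its few counts among them, and 3 fell for each line. Beside these, 34.1% (NB9464) and 35.3% (NBT3L) of all tested genes were called. The largest fall was that of Mxd3, another MAX partner (-1.82, adjusted p = 3.53e-08, and -2.38, adjusted p = 6.07e-13).

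MAP kinase phosphatases and the Sprouty and Spred genes are made in response to ERK and JNK signals and dampen them. Of 15 such genes, 6 fell and 1 rose with R788 without TCM (median -0.35), beside 26.6% of all tested genes called. In NB9464 TCM 10 fell and 5 did not pass (median -0.49, beside 14.5%). In NBT3L TCM 8 fell and 7 did not pass (median -0.69, beside 12.6%). With TCM against NS, 5 rose and 2 fell for NB9464 (beside 34.1%) and 3 rose and 2 fell for NBT3L (beside 35.3%). Dusp5, an ERK phosphatase, changed in all 3 media, by -1.45 (DESeq2 adjusted p = 6.15e-08), -0.94 (adjusted p = 0.00168) and -1.01 (adjusted p = 0.000559). Dusp6, also an ERK phosphatase, rose without TCM (0.31, adjusted p = 0.00569) and fell in NB9464 TCM (-0.79, adjusted p = 2.26e-14) and NBT3L TCM (-1.01, adjusted p = 1.27e-22). Spry2 changed in both tumor media, by -1.20 (adjusted p = 3.57e-06) and -0.98 (adjusted p = 0.000312). The MAP kinases and ternary complex factors themselves, 19 genes, had 2 higher and 3 lower with R788 without TCM, beside 26.6% of all tested genes called. They had 2 and 2 in NB9464 TCM (beside 14.5%) and 2 and 3 in NBT3L TCM (beside 12.6%), with medians between -0.044 and 0.00. With TCM 7 rose and 3 fell for NB9464 (beside 34.1%), and 6 rose and 4 fell for NBT3L (beside 35.3%). Their largest fall with R788 was that of Elk3, a ternary complex factor (-0.58, adjusted p = 1.95e-12, in NB9464 TCM).

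**Figure D5:**
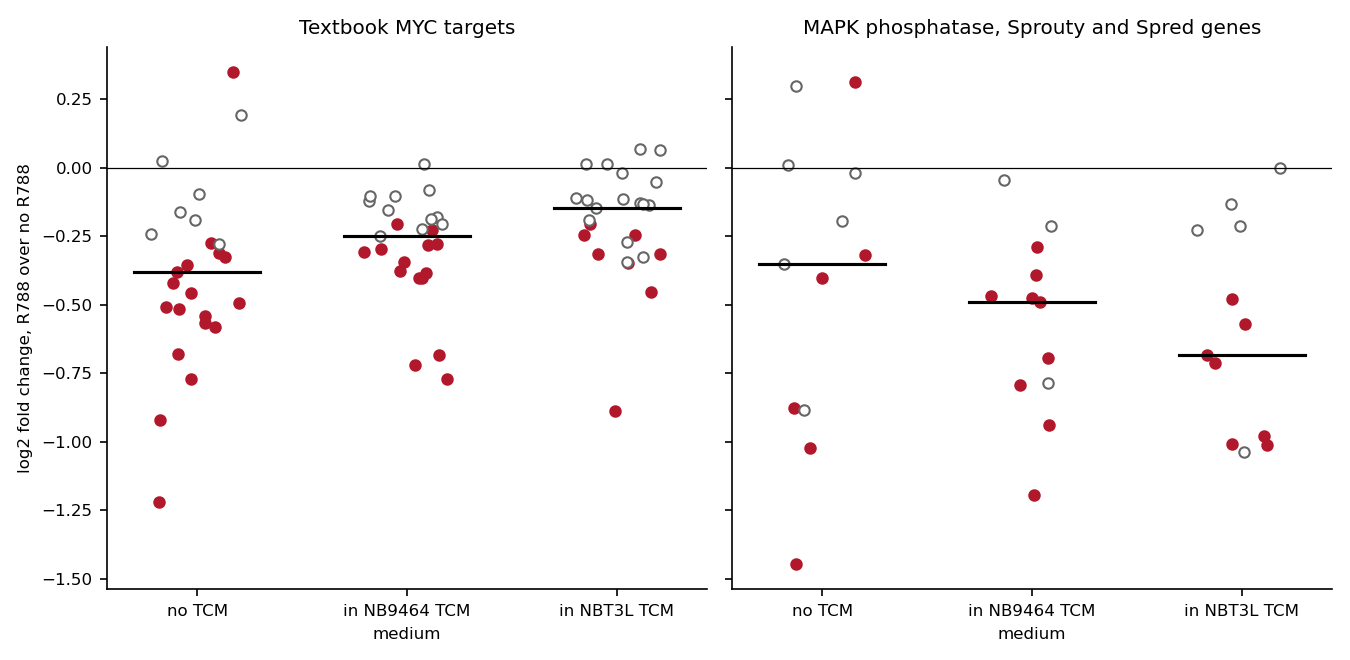
Log2 fold change with R788 (y axis) of 25 MYC targets (left) and of 12 MAP kinase phosphatase, Sprouty and Spred genes averaging 100 normalized counts or more (right), by medium (x axis). Filled dots passed the test, and lines mark the median of the whole list (25 and 15 genes), which lies below 0 in all 6 columns.

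Among 13 tested genes of the other AP-1 families, 4 rose and 2 fell with R788 without TCM, beside 26.6% of all tested genes called. In NB9464 TCM 2 rose and 3 fell (beside 14.5%), and in NBT3L TCM 3 fell and 10 did not pass (beside 12.6%). Fosl1, which encodes FRA1, was lowest in R788 and highest in TCM without R788, as Egr1 was. Its group means were 176 ± 43.2 in NS, 59.05 ± 18.03 (SD, n = 2) in R788, 559 ± 0.249 in NB9464 TCM, 205 ± 17.5 in NB9464 TCM + R788, 626 ± 28.4 in NBT3L TCM and 138 ± 0.887 in NBT3L TCM + R788. With TCM 6 rose and 2 fell for NB9464 (beside 34.1% of all genes called), and 4 rose and 2 fell for NBT3L (beside 35.3%). Maff, a small MAF protein, rose by 2.03 (DESeq2 adjusted p = 3.08e-31) and 2.05 (adjusted p = 6.7e-32). Jdp2, a repressor that pairs with JUN proteins, differed between the tumor media, 0.84 (adjusted p = 8.46e-14) higher in NB9464 TCM.

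Other immediate early genes, 17 in all, did not share a direction. With R788, 2 rose and 6 fell without TCM, 1 and 6 in NB9464 TCM, and 2 and 4 in NBT3L TCM. Of all tested genes, 26.6%, 14.5% and 12.6% were called in these comparisons. Zfp36, whose protein destabilizes cytokine RNAs, fell without TCM (-0.90, DESeq2 adjusted p = 1.18e-24), and Klf10 fell in all 3 media (-0.84, -0.31 and -0.38, adjusted p = 4.1e-19, 0.00717 and 0.000587). Btg2, an inhibitor of cell division, rose without TCM and in NB9464 TCM (0.60 and 0.53, adjusted p = 2.66e-06 and 6.38e-05). With TCM, 3 rose and 4 fell for NB9464 (beside 34.1% of all genes called) and 3 rose and 6 fell for NBT3L (beside 35.3%). Ier3, a survival gene, had the largest rise (1.69, adjusted p = 1.92e-87, and 2.14, adjusted p = 1e-139) and Klf4 the largest fall (-1.42, adjusted p = 4.64e-15, and -1.68, adjusted p = 2.88e-20).

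Of the 6 partners of BATF and ATF3, 3 rose and 0 fell in NB9464 TCM, beside 34.1% of all tested genes called. In NBT3L TCM 2 rose and 2 fell, beside 35.3%. Cebpb, a C/EBP factor of myeloid cells, rose by 1.09 (DESeq2 adjusted p = 1.87e-55) and 1.17 (adjusted p = 8.94e-63). Irf8, the partner of BATF in macrophages and dendritic cells, rose by 0.37 (adjusted p = 4.29e-08) and 0.19 (adjusted p = 0.0098). With R788, 3 rose and 3 did not pass without TCM, beside 26.6% of all genes called. In NB9464 TCM 1 (Cebpb) rose, beside 14.5%, and in NBT3L TCM the 6 did not pass, beside 12.6%. Atf4, of the amino acid stress response, was 0.67 (adjusted p = 1.37e-25) higher in NB9464 TCM than in NBT3L TCM, opposite to Atf3.

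For each gene, the genes most like it were those with the smallest root mean square difference of the centred log2 profile over the 6 groups, among 10701 genes averaging 100 normalized counts or more. Nearest to Batf was Rims3 at 0.0767, followed by Arg2, the mitochondrial arginase, at 0.185 and Ttc21a at 0.249. For scale, the median gene was 1.58 away from Batf. Nearest to Egr1 were Rnf183 (0.214), Sema3c (0.423) and Fosl1 (0.435), with a median of 1.35. Nearest to Myc were P2ry10b (0.0948), Abcb4 (0.0992) and Dkc1 (0.11), the last a pseudouridine synthase of ribosomal RNA and telomerase, with a median of 0.528. Nearest to Atf3 were Prag1 (0.0823), Ak6 (0.117) and Tnip3 (0.119), an inhibitor of NF-kB signaling, with a median of 0.489. Among the nearest to Fos were Ahsa1 (0.12) and Gemin6 (0.136), with a median of 0.437, and nearest to Fosl2 were Pvr (0.0674), Mllt11 (0.0679) and Rmc1 (0.0717), with a median of 0.456. Jun, Junb and Jund varied least, and their nearest genes were Mis12 (0.0273), Lsm7 (0.0255) and Trim44 (0.0221).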

How the data were processed

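RNA was poly(A)-selected and sequenced from 12 libraries in 6 groups of 2, grouped by the labels. The deposited table held counts of reads per Ensembl gene for 54232 genes, not divided by depth or length, beside a gene length in bases. Per the methods, the authors used STAR for alignment to mm10 and Salmon for quantification. The submitters' processing notes name STAR 2.6.1d, Salmon 1.4.0, SAMtools 1.9, Picard 2.26 and MultiQC 1.11. Which program made the whole-number counts, and whether it used strand, was not given in the sources used here. Between 65.2% and 67.89% of counts from 1 to 40 were even. The methods describe single reads, and the cause was not tested. Counts divided by 2 were an alternative. Sequencing depth was 44977847 to 56449685 counts per library. The methods speak of triplicates and the labels give 2 libraries.

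Symbols and positions (1-based) came from GENCODE on GRCm38, which held 54165 of the IDs. The 16281 genes that reached 10 counts in 2 or more libraries entered a single DESeq2 1.42.0 fit of 6 group means over all libraries in R 4.3.3, with median-of-ratios size factors, two-sided Wald tests and unshrunken log2 fold changes. P-values were adjusted over all tested genes within each contrast. Differences of R788 effects were contrasts of that fit. Intervals are 95% Wald intervals of one gene, not adjusted for the number of genes. The scripts were tested on simulated counts. The 9 genes, the gene lists, markers and tests were chosen with earlier results of these data known. Named genes of a list were the 3 largest rises and falls among called genes with a mean of at least 100 normalized counts per comparison of 2 groups, with the exceptions named in the text. 2 of the list entries, older names of genes listed under new names, had no match. Profiles were compared as log2 of the group mean plus 1. Alternatives were edgeR 4.0.16 with TMM scaling, TMM within DESeq2, no filter, a mean of at least 50 counts, counts divided by 2, a fit of only the libraries compared, and leaving out each library. Values of 2 genes that the rules for named and most alike genes select are not reported here.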

Additional observations from a re-analysis of the deposited data

Results flagged for a closer look

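The results below stand out because the effect of R788 on a gene differed between media by a test of the difference itself (DESeq2 contrast, adjusted over all tested genes). The value is the log2 effect of R788 in TCM minus that without TCM. For Fos it was 1.44 in NB9464 TCM and 1.05 in NBT3L TCM, and for Atf3 0.93 and 0.87. For Myc it was 0.57 and 0.44, and for Junb 0.41 and 0.35. Atf3 and Myc fell less with R788 in TCM than without it. Fos and Junb fell with R788 without TCM, and no effect of R788 on them was called in TCM. For Fosl2 the value was -0.33 in NB9464 TCM, where the fall was larger. The Fosl2 difference was no longer called without SJ2, SJ3 or SJ9, and that of Myc in NBT3L TCM without SJ1, SJ2, SJ5, SJ6 or SJ12. Neither was called in a fit of only the libraries compared. All 9 differences use the same NS and R788 libraries, of which SJ8 stood apart. Without SJ8 those of Fos and Atf3 were 1.35, 0.96, 0.85 and 0.79. What brings about these differences was not tested.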

How the results depend on the processing

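No paired analysis was possible because the labels number the libraries from SJ1 to SJ12 and groups share no number. Of 1944 recomputed values (108 results of the 9 genes, 18 alternatives each), 1867 kept their direction and side of the threshold, 64 were no longer called, 13 became called and 0 changed sign as a called value. The number of the 9 genes called stayed within 1.5 times the main count under the 6 alternatives that keep all libraries. With each library left out in turn it ranged from 3 to 8 for NB9464 TCM against NS, 5 to 7 for NBT3L TCM against NS, 6 to 7 for R788 against NS, 4 to 6 and 4 to 5 for R788 in NB9464 TCM and NBT3L TCM, 1 to 2 between the tumor media and 1 to 5 between them with R788. For the difference of R788 effects it ranged from 4 to 6 in NB9464 TCM, 3 to 6 in NBT3L TCM and 0 to 0 between the tumor media. For TCM against no TCM in the presence of R788 it was 7 to 8 for both. A group left with 1 library was assumed to vary like the others. Calls lost under the most alternatives were Atf3 in NB9464 TCM against NS (14 of 18), the Myc difference of R788 effects in NBT3L TCM (6), R788 on Atf3 in NB9464 TCM (5) and Fosl2 between the tumor media with R788 (5). Leaving out a library also leaves fewer libraries in the fit, and what caused the losses was not tested. The count of all tested genes whose R788 effect differed between the tumor media was 115, 21 by edgeR and 272 in the fit of only the libraries compared. Depth limits Egr1 most, with 12 to 309 raw counts per library.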
